A study of Mus musculus with 5 samples.

Results

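The genes described here are the mouse zinc finger genes named Zfp with a number of 3 digits. The data are RNA-seq of sorted germinal center B cells, either WT or with conditional deletion of Relb and Nfkb2, which encode the transcription factors RELB and p52. The Zfp genes were taken by name alone: 295 rows of the 38924 in the deposited table carried such a symbol, with 291 distinct names. Germinal center B cells are activated B cells that divide and mutate their antibody genes in the spleen after immunization. The cells came from spleens of 12-week-old mice, 7 days after injection of sheep red blood cells, and were purified by fluorescence-activated sorting of eGFP+ cells. The DKO group (n = 2 libraries) carried floxed alleles of both Relb and Nfkb2 (relbfl/flnfkb2fl/fl) with Cg1-Cre, and the WT group (n = 3 libraries) consisted of littermates with Cg1-Cre and no floxed alleles named. Cg1-Cre deletes floxed DNA once a B cell has begun to transcribe its IgG1 constant region, so deletion can differ from cell to cell. The labels give no strain and do not say that each library came from a separate mouse, so p-values measure the spread between these libraries.

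Most proteins named Zfp carry fingers of the Cys2His2 type, short folds around a zinc ion that lie side by side and read DNA. Many also carry a KRAB box, which binds the corepressor TRIM28 and through it the histone methyltransferase SETDB1, and such proteins are known for silencing retroelements and imprinted regions. RELB pairs with p52, the processed product of Nfkb2, in the alternative NF-κB pathway, which acts downstream of receptors such as CD40 and the BAFF receptor in B cells.

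Values are normalized counts, that is reads per gene divided by 1 scaling factor per library, as the authors deposited them. Library totals ran from 33953377 to 57582464 reads, of which 49.6% to 73.1% fell on the mitochondrial genome. Outside it lay 15.4, 15.5 and 15.5 M reads in WT replicates 1 to 3. In DKO replicates 1 and 2 there were 17.7 and 17.6 M, so this depth differed between the genotypes. Relb was at 136, 171 and 117 in WT replicates 1 to 3 and at 56.9 and 10.7 in DKO replicates 1 and 2, and Nfkb2 was at 657, 601 and 445 against 298 and 73.5. Both genes were lower in each DKO library than in every WT library, more so in DKO replicate 2. The summed value of the germinal center B cell marker list was 69733 to 149183, a range carried by the proliferation gene Mki67. The 5 other detected markers of that list summed to 22734 to 31697, and Mef2b was at 0 in all libraries. The sum of 8 T cell markers was 137, 911 and 65.3 in WT compared with 405 and 123 in DKO. This sum, carried mainly by Cd3e and Tcf7, was highest in WT replicate 2 and DKO replicate 1, whereas Cd5 was lowest in DKO replicate 1, at 13.1. Xist was high in WT replicates 2 and 3 and in DKO replicate 2, so both groups mixed libraries of both sexes. In bulk RNA, fewer cells of a type and less RNA per cell cannot be told apart.

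Of the 295 rows, 17 were listed at 0 in all 5 libraries, 43 had reads but a mean under 10 normalized counts, and 235 reached that minimum and were tested. The tested share was 79.7% of the Zfp rows, against 34.0% of all rows in the table. The repeated names were Zfp319, Zfp850 and Zfp953, which covered 7 rows. A coding transcript could be assigned to 288 rows. Their translations held a median of 10 Cys2His2 patterns, and the highest number, 37, was that of Zfp142. In 12 rows no such pattern was found, among them Zfp365 and Zfp750. A KRAB pattern was found in 150 rows and not in 138. Both patterns are matches to letters of the translated transcript, not curated domains. Sequence shared with other genes limits a few values. Of the tested genes, 14 had more than 30% of their 50-base stretches in transcripts of other genes, while 159 had less than 1%. Each share counts all other genes together, and the gene named beside it is the one holding the most of these stretches. For Zfp708 the share was 100%, with Gm28557 as that gene. Whether such transcripts are copies elsewhere or overlap at the same locus was not checked.

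Zfp genes were mostly transcribed at low to moderate levels in these cells. Per kb of transcript, the tested members had a median of 69.2 normalized counts over the 5 libraries, with quartiles of 23.7 and 144. The 11131 protein-coding genes tested had a median of 131 per kb, with quartiles of 38.3 and 362. Genes with a KRAB pattern had a median of 54.6 per kb, and those without had 119.

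The gene with the highest level per length was Zfp207, which encodes a spindle protein that loads BUB3 on kinetochores. It stood at 6294 ± 1285 per kb in WT and 6947 ± 273 in DKO (SD, n = 3 and 2). Next were Zfp106, an RNA-binding protein, at 767 ± 245 and 939 ± 102 per kb, and Zfp292, a large DNA-binding protein, at 615 ± 158 and 610 ± 292. Zfp451, a SUMO ligase, followed at 472 ± 104 and 671 ± 12.4 per kb, and Zfp706, a small protein with 1 finger pattern, at 509 ± 56.2 and 530 ± 69.8. Per kb, Zfp207 stood far above the others in all 5 libraries, whereas the order of Zfp106, Zfp292, Zfp451 and Zfp706 changed between libraries. The size of this lead depends on the length used, that of a single annotated transcript per gene, chosen by its coding sequence. In counts not divided by length, Zfp207 was above Zfp106 except in WT replicate 1, where they were at 9385 and 9425. For Zfp207, Zfp106, Zfp292 and Zfp706 the WT and DKO ranges overlapped.

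**Figure D1:**
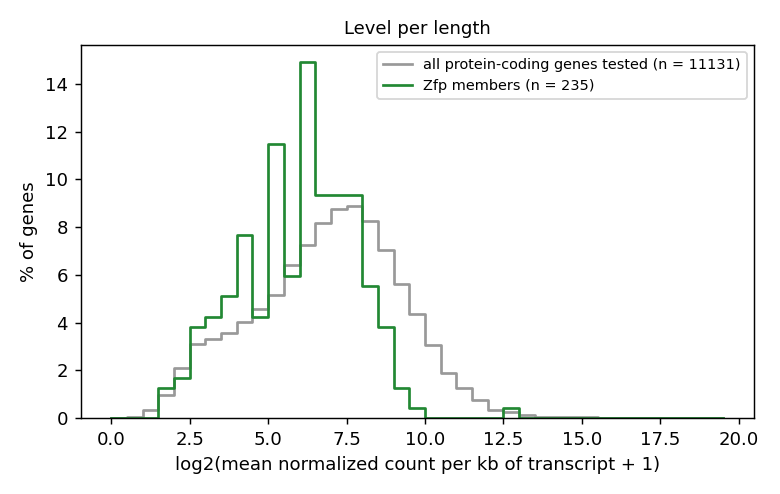
Distribution of the mean normalized count per kb of transcript over the 5 libraries, on a log2(value + 1) axis, as percent of the 235 tested Zfp genes (green) and of the 11131 tested protein-coding genes (grey). The Zfp genes lie to the left, with medians of 69.2 and 131, and the single gene far to the right is Zfp207.

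The comparison of DKO with WT asks which of these genes differ between germinal center B cells of the 2 genotypes. Relb and Nfkb2 RNA was lower but not absent in the DKO libraries, as given above, and protein was not measured here. None of the 235 tested members passed an adjusted p of 0.05 in limma's moderated test, nor did any of the 13242 genes tested (0%). The smallest adjusted p of a member was 0.823 (limma, Benjamini-Hochberg). edgeR's quasi-likelihood test on the whole reads behind the values also called 0 members. DESeq2 called 29 of 13238 genes (0.219%), and 1 of these was a member, Zfp142, with an adjusted p of 0.0384.

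As a group, the members lay evenly on both sides of no difference. Their log2 fold change, DKO over WT on the log2(value + 1) scale, was above 0 in 118 and below 0 in 117, with a median of 0.00. Over all genes tested, 50% were above 0 and the median was 0.00. The middle of the members ran from -0.30 to 0.28 (quartiles), against -0.25 to 0.31 for all genes. At an unadjusted p under 0.05 (limma) stood 8 members, or 3.40%, against a background of 6.06%. Of these, 3 were higher in DKO, which is 1.28% against a background of 3.69%. Lower by the same measure were 5 members, or 2.13% against a background of 2.37%. This background includes noncoding genes. Protein-coding genes alone, 11131 in number, had 269 higher and 282 lower. The groups did not overlap in 46 members (19.6%, background 23.4%). Both DKO libraries lay above all WT libraries in 20 members (8.51%, background 12.5%) and below all of them in 26 (11.1%, background 11%). A difference above 1 in size on the log2 scale was seen in 7 members, or 2.98%, against 10.1% of all genes: Zfp345, Zfp365, Zfp366, Zfp623, Zfp750, Zfp772 and Zfp850. Of these, Zfp345 had reads in a single library, at 69.6 in WT replicate 1 and 0 in the others. Zfp345 shares 30.5% of its 50-base stretches with other genes, of which Gm14139 holds the most. The median standard error of a member's log2 fold change was 0.35, which limits what could be detected.

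**Figure D2:**
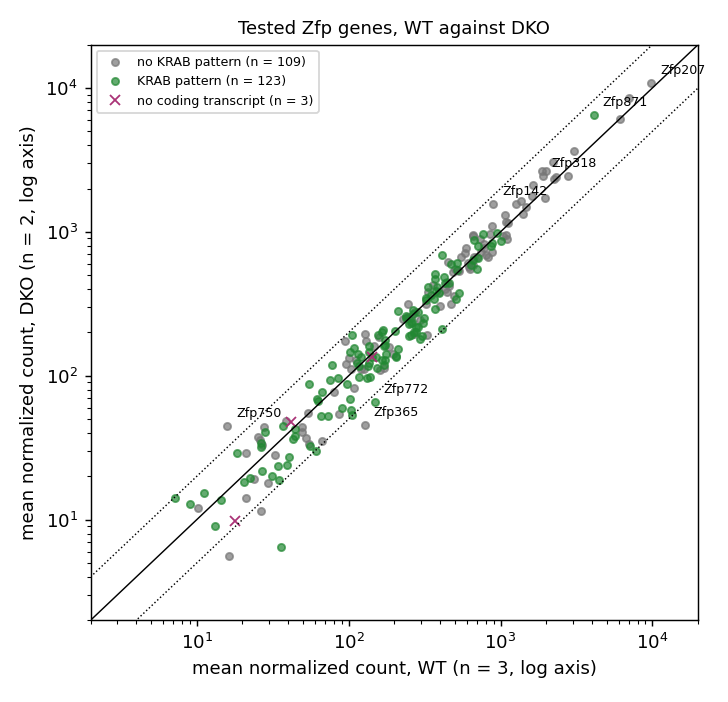
Mean normalized count in WT (n = 3, x axis) against DKO (n = 2, y axis), both on log axes, for the 235 tested Zfp genes, with colours for 123 genes with a KRAB pattern, 109 without and 3 with no coding transcript. The solid line marks equal means and the dotted lines mark a ratio of 2 in either direction; most points lie between the dotted lines.

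Zfp142 had the smallest p of all members. It encodes a large protein with the 37 finger patterns named above and no KRAB pattern. Its value was 925, 903 and 850 in WT compared with 1642 and 1469 in DKO. All 3 WT libraries lay close together, and both DKO libraries lay well above them. The log2 fold change was 0.80 ± 0.19 (SE, as for each fold change that follows), with an unadjusted p of 0.0026 in limma. It stayed between 0.72 and 0.88 when any single library was left out. Zfp365 had the smallest p among members lower in DKO. Its product, a coiled-coil protein induced by p53, is known for guarding telomeres and fragile sites. It was at 123, 191 and 69.2 in WT compared with 50.8 and 40.5 in DKO. The WT libraries spread widely, and the lowest of them was still above both DKO libraries. The log2 fold change was -1.36 ± 0.48 (SE), with an unadjusted p of 0.020 in limma.

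The stretches before the first listed transcription start of these genes are shown because RELB and p52 bind DNA at κB motifs. Zfp617 is added as the single tested member whose promoter held the strict motif. Each is 250 bases from RefSeq GRCm38.p6, in the direction of transcription. Zfp142 lies at chr1:74588029-74588278 on the minus strand, Zfp365 at chr10:67912663-67912912 on the minus strand and Zfp617 at chr8:71922575-71922824 on the plus strand. Capitals mark each match, on either strand, to the loose κB pattern, which reads GGG, any 5 bases and CC.
Zfp142: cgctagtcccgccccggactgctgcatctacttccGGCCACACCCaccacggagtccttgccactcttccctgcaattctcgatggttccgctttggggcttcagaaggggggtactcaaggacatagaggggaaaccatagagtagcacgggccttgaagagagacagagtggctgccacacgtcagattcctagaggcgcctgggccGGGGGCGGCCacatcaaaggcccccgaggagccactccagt
Zfp365: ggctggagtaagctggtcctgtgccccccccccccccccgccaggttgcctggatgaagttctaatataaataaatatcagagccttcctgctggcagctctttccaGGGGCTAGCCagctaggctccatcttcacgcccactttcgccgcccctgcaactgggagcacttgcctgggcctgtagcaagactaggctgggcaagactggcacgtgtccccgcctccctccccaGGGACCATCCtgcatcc
Zfp617: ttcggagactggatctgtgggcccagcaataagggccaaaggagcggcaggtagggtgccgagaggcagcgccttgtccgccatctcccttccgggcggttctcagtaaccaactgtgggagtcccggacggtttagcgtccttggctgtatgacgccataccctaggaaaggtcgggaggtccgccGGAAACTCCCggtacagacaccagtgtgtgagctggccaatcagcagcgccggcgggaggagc
The match in Zfp617 is also a match to the strict pattern, which reads GGGA, any base and TTTCC, and every strict match is contained in a loose one. Zfp617, a KRAB gene, was at 277, 262 and 207 in WT compared with 215 and 164 in DKO. The groups overlapped, and the log2 fold change was -0.39 ± 0.29 (SE). Zfp617 shares 44.0% of its 50-base stretches with other genes, of which Gm18180 holds the most, so its counts are uncertain.

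Of the 291 member names, 238 had a promoter in the RefSeq table, and 195 of those were tested. The strict pattern stood in 1 of the 195 (0.513%) and in 91 of all 27025 promoters (0.337%). The loose pattern stood in 100 (51.3%) and in 12261 (45.4%). Member promoters held a median of 12 CpG dinucleotides, against 6 over all, and a median GC content of 54.8% against 52%. A match describes these letters and is not a measured binding site.

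The other members at an unadjusted p near or under 0.05 and higher in DKO were Zfp326, Zfp451 and Zfp750, none of which had a KRAB pattern. Zfp326, a subunit of the DBIRD complex that links RNA polymerase II to splicing, was at 661, 683 and 642 in WT compared with 896 and 984 in DKO. WT values were almost level and both DKO values lay above them, with a log2 fold change of 0.50 ± 0.20 and an unadjusted limma p of 0.034. Zfp451, the SUMO ligase that also helps to resolve trapped topoisomerase, was at 2152, 2056 and 1397 in WT compared with 2690 and 2621 in DKO. WT replicate 3 was the lowest, and the log2 fold change was 0.53 ± 0.23, with an unadjusted p of 0.048 in limma. Without that library it was 0.34, at an unadjusted limma p of 0.109. Zfp750, a driver of epidermal differentiation, was weakly transcribed, at 22.5, 15.5 and 9.61 in WT compared with 53.4 and 35.5 in DKO. Its log2 fold change was 1.48 ± 0.65, at an unadjusted limma p of 0.050.

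Zfp608 and Zfp609 are paralogs, and the product of Zfp609 works with the cohesin loader NIPBL. Zfp608 was at 1678, 2509 and 2500 in WT compared with 3103 and 2982 in DKO. Zfp609 was at 352, 505 and 491 in WT compared with 638 and 591 in DKO. For both genes WT replicate 1 was the lowest library and the groups did not overlap, with log2 fold changes of 0.47 ± 0.23 and 0.47 ± 0.25. Without WT replicate 1 these were 0.28 for Zfp608 and 0.30 for Zfp609. Zfp871, which has a KRAB pattern, was at 5273, 4887 and 2144 in WT compared with 7127 and 5816 in DKO. Its log2 fold change of 0.76 ± 0.36 became 0.34 without WT replicate 3, the lowest library. The remaining 3 genes named by the rule were Zfp263, at 505 to 641 in WT and 772 to 778 in DKO, Zfp825, at 64.0 to 101 and 112 to 126, and Zfp784. Zfp784 was at 92.1, 88.7 and 104 in WT compared with 243 and 105 in DKO, and its log2 fold change of 0.75 became 0.15 without DKO replicate 1. Zfp825 shares 28.7% of its 50-base stretches with other genes, of which Gm46430 holds the most.

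Of the 10 genes named as lower in DKO, 6 had a KRAB pattern, against 2 of the 10 named as higher and 53.0% of the 232 tested members with a coding transcript. The difference was not tested. Zfp772 was at 176, 117 and 153 in WT compared with 34.2 and 97.5 in DKO, with a log2 fold change of -1.32 ± 0.48 and an unadjusted limma p of 0.022. Zfp758 was at 340, 315 and 234 in WT compared with 196 and 162 in DKO, a log2 fold change of -0.71 ± 0.29 and a p of 0.035 by the same test. Zfp229 was at 140, 90.8 and 82.6 in WT compared with 54.3 and 52.9 in DKO, a log2 fold change of -0.91 ± 0.40 and a p of 0.048, also unadjusted in limma. In each of these 3 genes both DKO libraries lay below every WT library, and the DKO values of Zfp772 differed most from each other. Without DKO replicate 1, which held the lower value, the log2 fold change of Zfp772 was -0.58. The fifth gene at an unadjusted p under 0.05, Zfp760, falls outside the naming rule because its groups overlapped. It was at 262, 563 and 405 in WT compared with 274 and 147 in DKO.

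Zfp850 stood on 3 rows, of which 1 was at 0 throughout. One of the others was at 35.3, 62.9 and 8.65 in WT compared with 7.88 and 4.96 in DKO, a log2 fold change of -1.95 ± 0.94. The remaining row was at 105, 86.7 and 99.9 in WT compared with 119 and 57.0 in DKO, so rows of the same name did not show the same difference. Zfp946 was at 46.4 to 85.6 in WT and 29.7 to 30.6 in DKO, and Zfp958 at 216, 237 and 166 against 141 and 130. Besides Zfp365, the genes of the lower group without a KRAB pattern were Zfp513, at 162 to 189 in WT and 112 to 116 in DKO, Zfp553, at 450 to 532 and 303 to 418, and Zfp189, at 147 to 175 and 88.4 to 130. Naming of both groups required that the WT and DKO values not overlap, so the lack of overlap is no further finding.

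**Figure D3:**
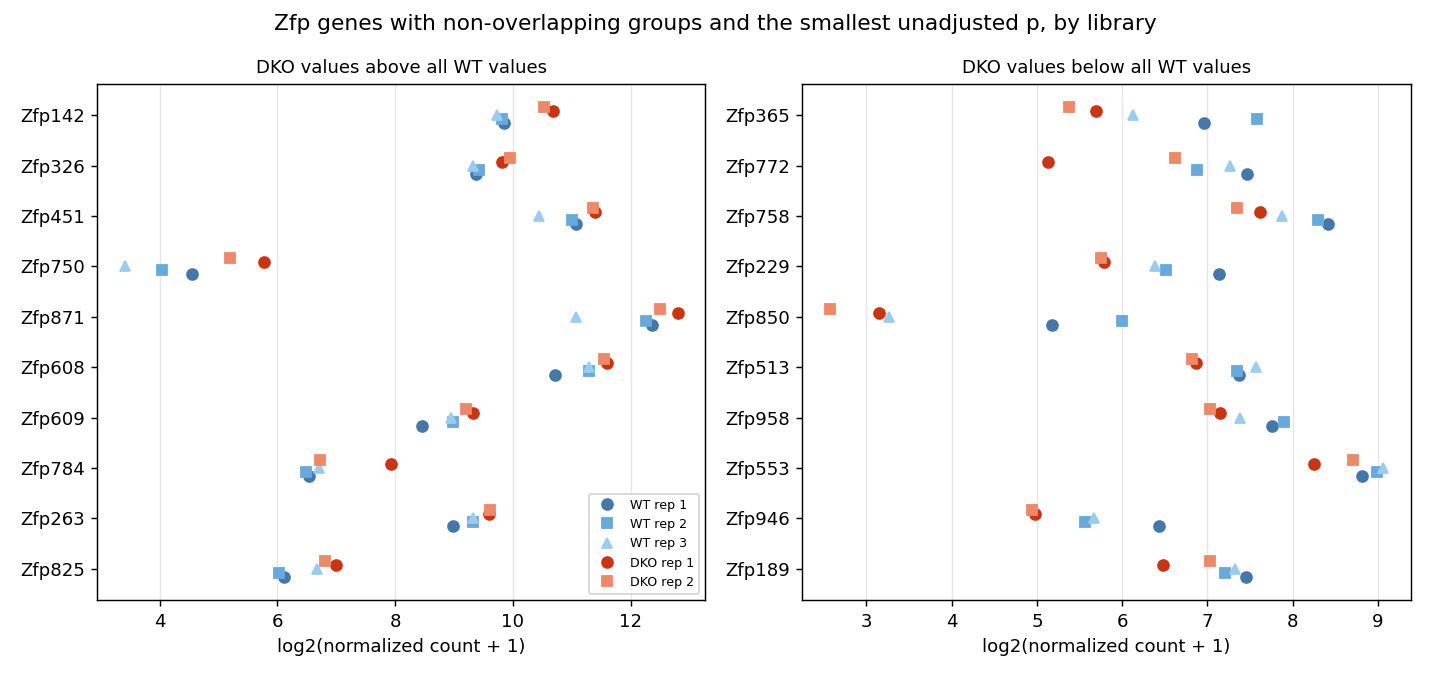
Each point is 1 library of 1 gene, placed by log2(normalized count + 1), with the 3 WT libraries in blues and the 2 DKO libraries in reds. The 10 genes on the left have both DKO values above all WT values and the 10 on the right have them below; the gap between the groups is wide for Zfp142 and Zfp229 and narrowest for Zfp784, at 104 in WT and 105 in DKO.

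Some members have known roles, and 5 lists of 36 such genes were described. Of 8 genes with roles in B and T lymphocytes, 6 were tested, and 5 had a log2 fold change above 0 (background 50%), with a median of 0.27. None had an unadjusted p under 0.05 in limma (background 6.06%). Zfp384, a factor often fused in B cell leukemia, was at 1159, 1135 and 1472 in WT compared with 1589 and 1559 in DKO, a log2 fold change of 0.34 ± 0.21 and no overlap. Zfp148, a GC-box binding factor, was at 2980, 2780 and 2524 in WT compared with 2554 and 2335 in DKO, a log2 fold change of -0.17 ± 0.19. Zfp521 and Zfp423, related proteins that oppose the B cell factor EBF1, were near 0, at 6.19 or less and 13.9 or less in every library.

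Zfp318 and Zfp831 of this list differed more between libraries than between genotypes. Zfp318, which mature B cells need to make IgD, was at 898, 4103 and 693 in WT compared with 3706 and 1184 in DKO. Zfp831, which is known from follicular helper T cells of mice, was at 606, 1552 and 473 in WT compared with 1476 and 733 in DKO. Both genes were high in WT replicate 2 and DKO replicate 1 and low in the other 3 libraries. Log2 fold changes were 0.62 ± 0.72 for Zfp318 and 0.45 ± 0.49 for Zfp831, and they became -0.21 and -0.059 without DKO replicate 1. The same 2 libraries were the highest in the summed value of 6 naive B cell markers on 7 rows, which was 7815, 22919 and 11804 in WT compared with 20150 and 9869 in DKO. They were also the highest in the T cell sum given above and in the sum of 5 NK cell markers, at 22.5, 285 and 2.88 in WT compared with 91.9 and 23.1 in DKO. Naive B cell markers were at 0 in no library, and of the T cell markers only Cd3g was at 0, in DKO replicate 2. With the mean log2 level of the T cell markers as a covariate, the log2 fold change was 0.53 ± 0.18 for Zfp318, with an unadjusted limma p of 0.017, and 0.39 ± 0.18 for Zfp831, with 0.063. Neither passed after adjustment over all genes, at adjusted p values of 0.473 and 0.575 (limma, Benjamini-Hochberg). The part of naive B cells in these levels was not tested.

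**Figure D4:**
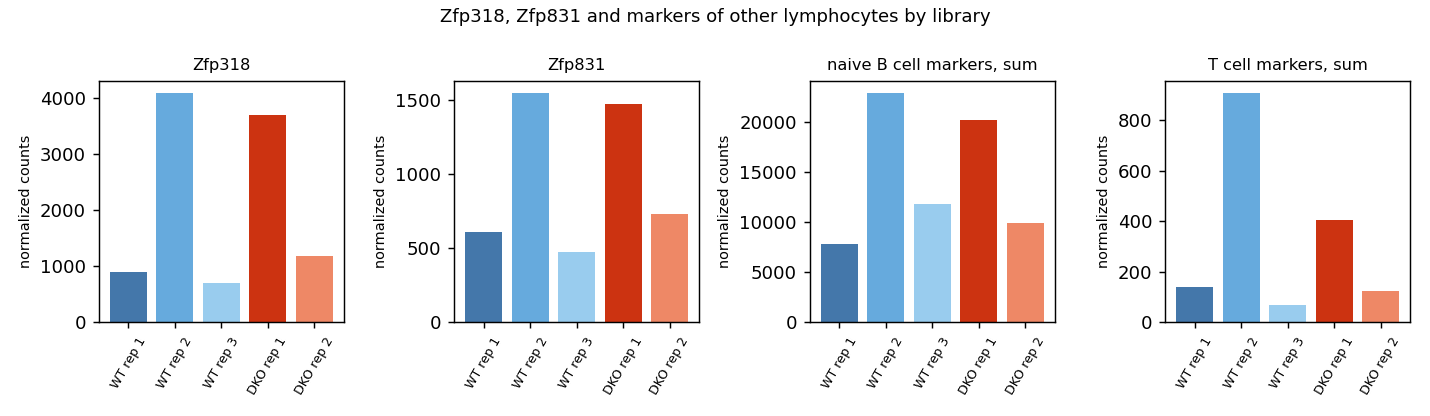
Bars give the normalized count of Zfp318 and Zfp831 and the summed normalized counts of the naive B cell and T cell marker lists in each of the 5 libraries, on linear axes from 0. WT replicate 2 and DKO replicate 1 are the highest libraries in all 4 panels, with Zfp318 at 4103 and 3706.

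Among genes of RNA processing and translation, 5 of 6 were tested and 4 were above 0 (background 50%), with a median of 0.20 on the log2 scale. Apart from Zfp326, none had an unadjusted p under 0.05 in limma (background 6.06%). Zfp106 was at 9425, 6411 and 5077 in WT compared with 7875 and 9192 in DKO. Zfp346, which binds double-stranded RNA, was at 358, 297 and 337 in WT compared with 342 and 423 in DKO. Zfp598, the ubiquitin ligase that acts on collided ribosomes, was at 440, 382 and 556 in WT compared with 357 and 483 in DKO. These 3 genes overlapped between the groups.

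Of the 6 genes in genome maintenance and mitosis, all of them tested, 4 were above 0 (background 50%), with a median of 0.11. Zfp451 and Zfp365 are given above and lay in opposite directions. Zfp827, which brings the NuRD complex to telomeres, was at 48.2, 238 and 101 in WT compared with 241 and 150 in DKO, so its groups overlapped. Zfp207 was at 9385, 8086 and 12024 in WT compared with 10550 and 11153 in DKO, a log2 fold change of 0.16 ± 0.23. The log2 fold changes of Zfp830 and Zfp668 were -0.00 ± 0.26 and 0.06 ± 0.26.

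In the list of chromatin partners, 9 of 11 genes were tested and 6 were above 0 (background 50%), with a median of 0.16. No gene of this list had an unadjusted p under 0.05 in limma (background 6.06%). Besides Zfp608 and Zfp609, Zfp592, part of a complex with ZMYND8, was at 2251, 2961 and 3863 in WT compared with 3664 and 3676 in DKO. Zfp143, a promoter-bound factor, was at 564, 424 and 654 in WT compared with 571 and 759 in DKO. Both of these genes overlapped between the groups. Zfp462 and Zfp532 fell under the minimum.

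Of 5 genes known for silencing retroelements and imprinted regions in mice, 4 were tested and 3 were above 0 (background 50%), with a median of 0.24. Zfp809, which binds the primer site of murine leukemia viruses, was at 345, 287 and 367 in WT compared with 406 and 420 in DKO, a log2 fold change of 0.32 ± 0.24 and no overlap. Zfp445, which protects imprints, was at 929, 711 and 666 in WT compared with 1044 and 899 in DKO, and Zfp568, a repressor of placental Igf2, at 817, 590 and 736 in WT compared with 768 and 828 in DKO. Zfp708 was at 145, 48.5 and 116 in WT compared with 57.8 and 58.6 in DKO, and its sequence is shared with other genes as stated. Zfp445, Zfp568 and Zfp708 overlapped between the groups, and no gene of the list had an unadjusted p under 0.05 in limma (background 6.06%).

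The corepressors that KRAB proteins recruit are not members and are given for the pathway. Their list of 29 genes was tested on 29 rows, since Atf7ip stood on 2 rows and Fam208a had no tested row. Of these rows 9 were above 0 (31.0%, background 50%) and 20 below, and the median was -0.05 on the log2 scale. At an unadjusted p under 0.05 in limma there were 0 rows (background 6.06%). Trim28 was at 2304, 1826 and 2889 in WT compared with 1913 and 2621 in DKO. Setdb1 was at 1686, 1325 and 1658 in WT compared with 1466 and 1681 in DKO. In both genes the DKO values lay within the WT range. The row of Atf7ip, a SETDB1 partner, with the smallest p was at 4016, 5107 and 4292 in WT compared with 5865 and 5947 in DKO, a log2 fold change of 0.41 ± 0.20. The other 3 genes named by the rule were Rbbp7, Chd3 and Cbx5, with log2 fold changes of -0.31 ± 0.21, -0.29 ± 0.21 and 0.35 ± 0.27. Without DKO replicate 1 those of Rbbp7 and Cbx5 were -0.12 and 0.64, and without DKO replicate 2 they were -0.51 and 0.05.

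Members with and without a KRAB pattern were also described apart. Of the 123 tested genes with the pattern, 55 were above 0 in the comparison of DKO with WT and 68 below, with a median of -0.07. Of the 109 without, 61 were above and 48 below, with a median of 0.03. At an unadjusted p under 0.05 in limma, 0 KRAB genes were higher and 4 (3.25%) lower. Of genes without the pattern, 3 (2.75%) were higher and 1 (0.917%) lower, against 3.69% higher and 2.37% lower over all genes. Of the 11131 protein-coding genes tested, 269 were higher and 282 lower by the same measure. Above 0 were 44.7% of the KRAB genes, 56.0% of those without the pattern and 47.1% of the protein-coding genes. The difference between these classes was not tested.

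By library, each gene's log2 value was set against its own mean over the 5 libraries. KRAB genes had median deviations of 0.14, 0.20 and -0.22 in WT compared with 0.10 and -0.16 in DKO. Genes without the pattern had 0.00, 0.03 and -0.02 in WT compared with 0.09 and -0.04 in DKO, and all tested genes lay between 0.00 and 0.03. KRAB genes were thus low in WT replicate 3 and DKO replicate 2 and high in WT replicates 1 and 2 and DKO replicate 1. WT replicate 3 held the lowest value in 45 of the 123 KRAB genes (36.6%), against 24.2% of all tested genes, and DKO replicate 2 in 40 (32.5%), against 15.2%. The share of reads on the mitochondrial genome was 65.7%, 54.5% and 73.1% in WT and 49.6% and 63.5% in DKO. The summed value of 5 myeloid markers was 984, 813 and 99.9 in WT compared with 1047 and 403 in DKO, and was lowest in the same 2 libraries. Single markers differed from the sum: Csf1r was at 256, 80.5 and 28.8 in WT compared with 184 and 256 in DKO, so it was not low in DKO replicate 2. The T cell sum was also lowest in WT replicate 3 and DKO replicate 2, at 65.3 and 123, against 137 in WT replicate 1. Single T cell markers differed here too: Cd4 was lowest in WT replicate 1, at 2.14, and was at 22.3 in DKO replicate 2. Cd3e and Cd3d were also higher in DKO replicate 2 than in WT replicate 1, whereas Tcf7, Cd3g, Cd5, Lat and Cd8a were lower. The germinal center sum, carried by Mki67, was lowest in the same 2 libraries. Without Mki67, the 5 other detected markers of that list summed to 28579, 22734 and 31697 in WT. They summed to 23376 and 27099 in DKO, so this sum was highest in WT replicate 3 and lowest in WT replicate 2. Sums of naive B cell, NK cell, pan B cell, plasma cell and erythroid markers had other pairs of libraries lowest. KRAB transcripts were poor in GC, with a median of 41.4% against 51.2% for members without the pattern. After a correction of each library for transcript length and GC content, KRAB genes had median deviations of 0.05, 0.13 and 0.03 in WT and -0.00 and -0.11 in DKO. Over all genes the corrected medians were 0.01, -0.04 and 0.12 in WT and -0.07 and 0.03 in DKO. The corrected medians of KRAB genes lay below those of all genes in WT replicate 3 and DKO replicate 2. This correction was added after seeing the data. The part of the mitochondrial share and of myeloid, T or other cells in these deviations was not tested.

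**Figure D5:**
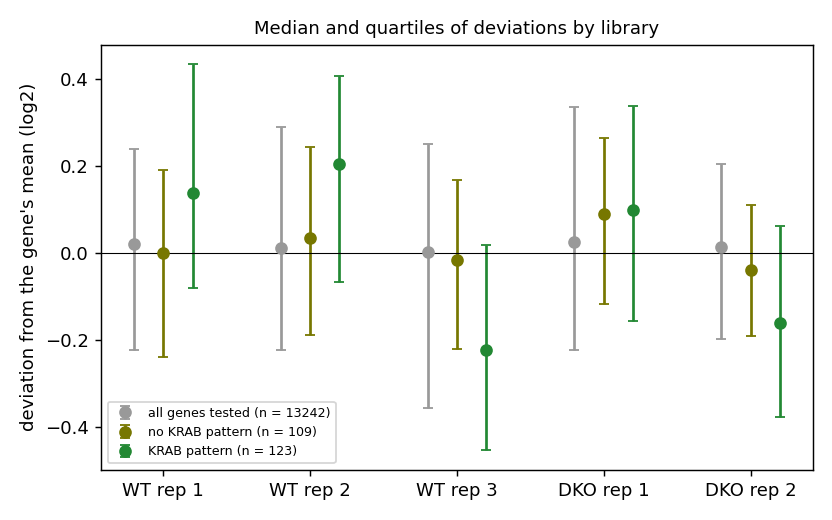
Points give the median and bars the quartiles of each gene's deviation from its mean over the 5 libraries, in log2 units, for all 13242 tested genes (grey), 109 Zfp genes without a KRAB pattern (olive) and 123 with it (green). The KRAB genes lie at -0.22 in WT replicate 3 and -0.16 in DKO replicate 2, and at or above 0.10 in the other 3 libraries.

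Many Zfp genes lie next to each other in the genome, and the order of protein-coding genes in RefSeq GRCm38.p6 was used to find runs of 3 or more. Tested members in runs numbered 87, and their median difference was -0.03 on the log2 scale. A further 34 stood in pairs, with a median of 0.00, and 111 had no Zfp neighbour, with a median of 0.02. Runs with at least 3 tested members numbered 17. The largest, of 20 genes, had 10 tested members, 5 above 0 and 5 below. All tested members were on the same side of 0 in 4 runs, 2 in each direction, and these were picked out after their values were seen. The run of Zfp944, Zfp758 and Zfp946 lay between -0.93 and -0.39. In the run of Zfp418, Zfp954, Zfp773 and Zfp772, values ran from -1.32 for Zfp772 to -0.03 for Zfp773, so that it was led by a single gene. Zfp866, Zfp868, Zfp869 and Zfp963 lay between 0.09 and 0.40, and Zfp809, Zfp599 and Zfp810 between 0.01 and 0.32. Genes of similar sequence can exchange reads. Zfp963 shares 40.4% of its 50-base stretches with other genes, of which Gm20422 holds the most. For Zfp944 the share is 10.4%, and Zfp942 holds the most.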

How the data were processed

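RNA was sequenced from sorted splenic germinal center B cells after amplification with the Ovation RNA-Seq System V2, per the labels' protocols. Tools listed in the submitters' processing notes are Cufflinks 2.0.2, TopHat2 2.0.4 and CASAVA 1.8.2, with mm9 as the build. How reads were counted, whether strand was used and where the scaling came from is not given in the sources used here. A normalized signal was deposited by the authors for each gene and library. These values were whole multiples of 1 step per library, within 0.01 of a whole number, for 100% of values above 0 in 4 libraries and 99.99% in DKO replicate 2, and whole reads were recovered from the step.

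Genes with a mean of at least 10 were tested with limma 3.58.1 (R 4.3.3) on log2(value + 1), two-sided, with a mean-variance trend and Benjamini-Hochberg adjustment over all 13242 genes at a threshold of 0.05. Fold changes on this scale understate those of low genes. Residual degrees of freedom were 3. Whole reads were also tested with edgeR 4.0.16 and DESeq2 1.42.0. Further alternatives covered the pseudocount, the minimum, scaling, weights, covariates and single libraries left out. The correction for length and GC content used splines with 5 degrees of freedom. Its use on deviations by library was added after seeing the data. The gene test was also run on simulated data with 200 changed genes. These data had the same dispersion for all genes and no differences in cell make-up between libraries. That run therefore does not measure how the test performs on these libraries.

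Names were matched to RefSeq GRCm38.p6 and GENCODE M21, 292 rows by symbol and 3 by synonym. Length, GC content, protein patterns and gene order come from that build, so no mm9 positions are given. Named by rule were, in each direction, the 10 members of smallest p with groups that did not overlap, the 5 with the highest level per kb and up to 4 per list. Zfp617, Zfp345, Zfp366, Zfp623, Zfp760 and genes named as neighbours or list remainders fall outside it, having been chosen with their values in view. The members and lists were chosen with earlier results of these data known.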

Additional observations from a re-analysis of the deposited data

How the results depend on the processing

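Over 20 alternatives, the median log2 fold change of the members stayed between -0.10 and 0.11. No member passed an adjusted p of 0.05 except Zfp142 in DESeq2 (1 gene, log2 fold change 0.80, adjusted p 0.0384). Over the alternatives, its adjusted p ran from 0.0384 to 1. Counts at an unadjusted p under 0.05 moved more. Against 3 higher and 5 lower, array weights gave 5 higher (2.13%, all genes 4.55%). A covariate for T cell markers gave 8 higher (3.40%, all genes 5.54%) and 8 lower (3.40%, all genes 3.68%). The length and GC correction gave 5 higher (2.13%, all genes 3.67%) and 2 lower (0.851%, all genes 2.98%). Leaving out single libraries gave 1 to 10 higher and 1 to 7 lower. Higher members numbered 7 without WT replicate 1 (2.98%, all genes 3.93%), 10 without WT replicate 2 (4.26%, all genes 5.54%) and 1 without DKO replicate 1 (0.426%, all genes 0.695%). Lower members numbered 2 without WT replicate 1 (0.851%, all genes 1.60%) and 1 without DKO replicate 2 (0.426%, all genes 1.75%). Without both WT replicate 2 and DKO replicate 1 there were 1 higher (0.426%, all genes 1.18%) and 3 lower (1.28%, all genes 1.27%). The cause was not tested. Where a DKO replicate is left out, the lone DKO library is assumed to vary like the WT libraries.

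With the replicate number as a block, 1 member was higher (0.426%, all genes 2.04%) and 8 were lower (3.40%, all genes 2.24%), and WT replicate 3 then adds nothing to the contrast. Deviations of same-numbered libraries had r = 0.005 for replicate 1 and -0.28 for replicate 2 across genes. With 2 DKO libraries these deviations mirror each other, so the check cannot settle whether numbers pair the libraries, and no label says that they do.

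Of 41 named genes, 36 kept their direction throughout, but a single library left out moved the log2 fold change of 24 by over 1.5 times. Of the 7 named at an unadjusted p under 0.05, 6 were over it without some single library, Zfp142 being the exception. Zfp758 was at -0.44 after the length and GC correction, with an unadjusted limma p of 0.133. The length and GC correction gave -0.0032 for Zfp706 and 0.051 for Zfp598, and the block gave 0.020 for Zfp598. With single libraries left out, Zfp292 ran from -0.57 to 0.45, Zfp706 from -0.078 to 0.19, Zfp831 from -0.059 to 0.96, Zfp318 from -0.21 to 1.44 and Zfp598 from -0.34 to 0.090.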
